A study of Mus musculus with 32 samples.

Results

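Granulocyte-macrophage progenitors (GMP) were compared between FLT3-ITD mice given Lys05 together with AC220 (called the combination here) and mice given AC220 alone, with 4 libraries in each group and 8 of the 32 samples of the study. The samples were chosen by their labels alone, FACS sorted GMP with the treatment Combination or AC220, and the comparison shows what Lys05 was associated with when AC220 was also present. All mice, controls included, were C57BL/6 and transgenic for FLT3-ITD, a form of the growth factor receptor FLT3 that signals without its ligand because part of it is duplicated in tandem, as in many acute myeloid leukemias. AC220 (quizartinib) inhibits FLT3, and Lys05 is a dimeric chloroquine that accumulates in lysosomes and blocks autophagy. The other GMP groups received vehicle or Lys05, and LSK cells, which hold the stem and multipotent progenitor cells, were sorted from the same 4 treatments. The labels state 4 biological replicates per group and give no dose, time, batch, animal age or promoter of the transgene. Values per library are given in the order of libraries 1 to 4, as CPM, read counts scaled to library size with edgeR's factors.

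GMP are committed bone marrow cells that give rise to granulocytes and monocytes and, through Irf8-dependent progenitors, to some dendritic cells. MHC class II molecules present peptides from lysosomes and endosomes to CD4 T cells. Their chains are held by the invariant chain Cd74 until it is digested in the lysosome, the H2-DM heterodimer then exchanges the remaining fragment for peptides, and H2-DO, made of H2-Oa and H2-Ob, restrains H2-DM. The genes are switched on together by the coactivator Ciita, which acts through the X box and Y box of their promoters.

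The 14 GMP markers summed to 26986 to 47095 CPM in AC220 libraries and 26744 to 34444 CPM in combination libraries. Single markers were low in some libraries, such as Gfi1 at 4.57 CPM in AC220 library 1 and Kit at 12.3 CPM in combination library 3. Mpo, an abundant enzyme of primary granules, was at 8219, 10750, 13307 and 10186 CPM with AC220 and at 7839, 7445, 4447 and 8042 CPM with the combination. Every one of the 14 GMP markers was tested. The early B cell factor Pax5 and the B cell receptor component Cd79a held 1 and 2 counts in all over the 4 AC220 libraries and 3 and 6 over the 4 combination libraries, and Ms4a1 held 0 counts in all 8. Other B cell genes held more. Cd79b was at 7.27, 128, 253 and 102 CPM with AC220 and at 133, 161, 126 and 29.3 CPM with the combination, and Ighm, the IgM heavy chain, at 119, 160, 252 and 234 CPM against 154, 43.4, 4.49 and 270 CPM. Igll1, a surrogate light chain, held 939 counts over the AC220 libraries and 8 over the combination libraries. Nearly all of the 939 lay in AC220 library 3 (0.0, 0.0, 27.6 and 0.057 CPM). The factor Ebf1 held 0 counts with AC220 and 260 with the combination, all in combination libraries 3 and 4 (3.58 and 3.54 CPM). Libraries differed within groups by more than counting error, with a chi-square per gene of 209 to 1410 between libraries of a group. Gene counts ran from 35.7 to 54.1 M over the 16 GMP libraries. The number of the 14572 tested genes with 0 counts was 1380 to 3248 in AC220 libraries and 965 to 2754 in combination libraries, against 80 to 2253 with vehicle and 133 to 1212 with Lys05. Combination library 3 stood apart, with a median correlation of 0.684 with the other 15 GMP libraries, where the others had 0.777 to 0.882. It also held 18.1% of its gene counts in mitochondrially encoded genes, and carried 132 CPM of the matrix gene Sparc and 215 CPM of the red pulp macrophage factor Spic. None of the 7 library measures passed a test between the groups (exact two-sided permutation tests, Benjamini-Hochberg adjusted p from 0.2 to 0.571, where 4 against 4 allows 0.0286 at the lowest before adjustment). A pass needed several measures to separate fully, so these tests do not show that the groups were alike. Counts outside genes averaged 26.8% with the combination and 22.3% with AC220, and the mitochondrially encoded share 7.33% and 1.19%.

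**Figure D1:**
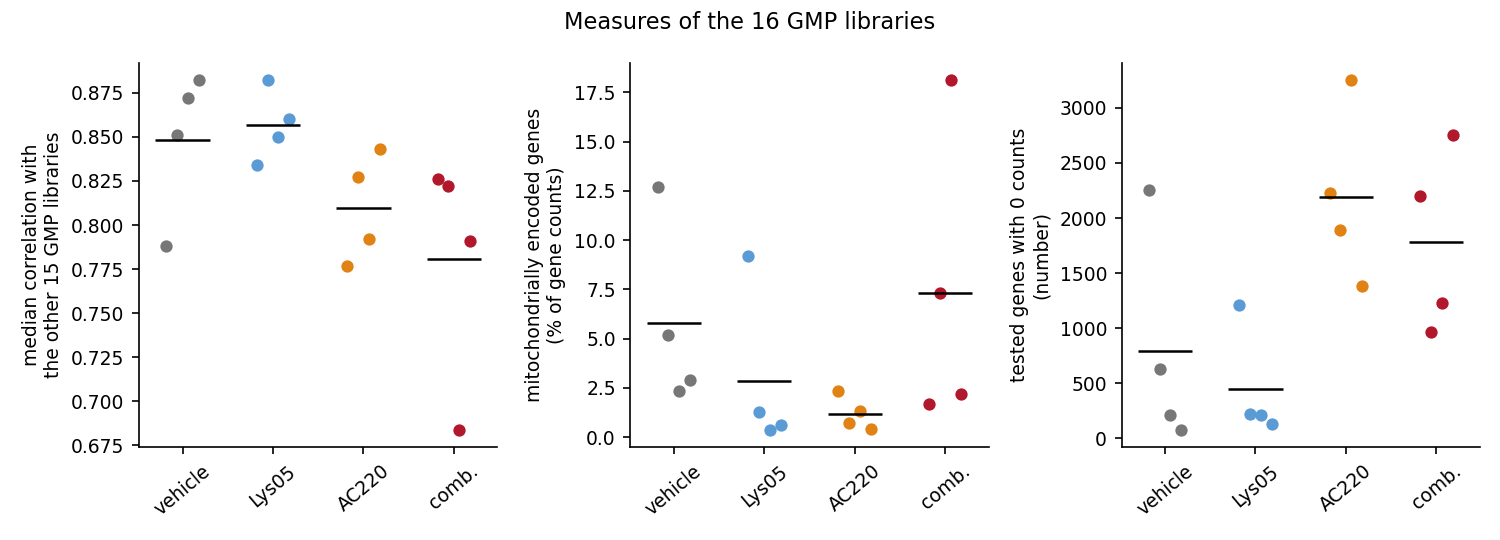
Each point is 1 of the 16 GMP libraries, by treatment, and the line is the mean of 4. Left, median correlation of log2 CPM with the other 15 libraries. Middle, share of gene counts in mitochondrially encoded genes. Right, tested genes with 0 counts. Combination library 3 sits at 0.684 and 18.1%.

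H2-Ob, the beta chain of H2-DO, was the gene that passed the test across all genes. Its level was 64.9, 23.9, 13.9 and 21.6 CPM with AC220 and 0.0244, 0.681, 0.104 and 0.145 CPM with the combination, which is 2472, 944, 471 and 1140 counts against 1, 29, 4 and 5. Every combination library was below every AC220 library, and also below every vehicle library (19.3, 35.6, 8.61 and 14.2 CPM) and every Lys05 library (13.9, 4.76, 10.3 and 10.6 CPM). H2-Ob fell by 7.0 on the log2 scale (SE 1.03, edgeR quasi-likelihood test, adjusted p = 0.0422, n = 4 each). It was 1 of 14572 genes called, 0.00686% of those tested, with 0 genes called higher. At an unadjusted p under 0.05, 1249 genes (8.57%) were higher and 786 (5.39%) were lower. The groups did not overlap at 235 genes (1.61%) with the combination higher and at 294 (2.02%) with it lower. The H2-Ob call did not hold in 15 of 24 alternatives, without combination library 3 among them (-6.63, adjusted p = 0.106). Its log2 fold change stayed between -8.32 and -5.84 and its adjusted p ran from 5.2e-17 to 0.768. DESeq2 called 818 genes, 547 higher and 271 lower.

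H2-Ob (ENSMUSG00000041538) lies on the plus strand of chromosome 17 at 34238903 to 34254414 on GRCm38, between H2-Oa (34092340 to 34095234) and the classical chains H2-Ab1 (34257689 to 34269419), H2-Aa (34282744 to 34287823) and H2-Eb1 (34305867 to 34316674). The 250 bases before the RefSeq start (GRCm38.p6) of H2-Ob, H2-Aa and H2-Eb1 are shown because they hold letters of the X and Y boxes. They were chosen for those letters, so that they share them is no finding. The window of Cd74 is not shown. The windows are chr17:34238655-34238904 on the plus strand, chr17:34287824-34288073 on the minus strand and chr17:34305617-34305866 on the plus strand, each written 5′ to 3′ with the matches in capitals.
H2-Ob: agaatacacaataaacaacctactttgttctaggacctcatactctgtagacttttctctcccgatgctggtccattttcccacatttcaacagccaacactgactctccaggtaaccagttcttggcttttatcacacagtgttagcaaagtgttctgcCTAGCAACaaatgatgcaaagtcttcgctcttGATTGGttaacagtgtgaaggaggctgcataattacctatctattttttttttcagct
H2-Aa: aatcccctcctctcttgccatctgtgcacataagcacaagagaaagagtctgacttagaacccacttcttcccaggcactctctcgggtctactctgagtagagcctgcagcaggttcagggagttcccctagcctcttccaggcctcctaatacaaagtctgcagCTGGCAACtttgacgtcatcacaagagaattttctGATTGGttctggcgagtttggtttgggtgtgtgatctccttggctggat
H2-Eb1: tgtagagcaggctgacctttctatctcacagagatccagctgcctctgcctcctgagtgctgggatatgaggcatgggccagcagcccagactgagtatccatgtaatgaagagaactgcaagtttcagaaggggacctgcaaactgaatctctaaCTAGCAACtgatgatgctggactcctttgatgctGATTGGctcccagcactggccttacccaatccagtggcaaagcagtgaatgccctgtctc
The capitals mark an X-box-like match (CNNGCAAC) followed by a Y-box-like match (GATTGG, which holds the inverted CCAAT box), letters that were chosen after the sequences had been read. The X-like match began 90, 84 and 94 bases before the start of H2-Ob, H2-Aa and H2-Eb1, and the Y-like match followed it after 32, 35 and 34 bases, first base to first base. Of 32851 such windows in the mouse table, 9.26% held the X-like letters and 14.6% the Y-like letters on either strand, and 50 (0.152%) held both in this order with 15 to 45 bases between their first bases. These are matches of letters and no measurement of binding.

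The classical class II chains and the invariant chain were lower in every combination library than in every AC220 library, but did not pass the test across all genes. H2-Ab1, the beta chain of I-A, was at 3468, 2895, 2987 and 4961 CPM with AC220 and at 106, 696, 567 and 622 CPM with the combination (log2 fold change -2.85, SE 0.57, edgeR adjusted p = 0.186). Cd74 was at 3254, 2582, 2314 and 4108 CPM against 61.2, 456, 484 and 284 CPM (-3.25, SE 0.63, edgeR adjusted p = 0.16). All 8 values of each gene kept the order of the groups, with combination library 1 the lowest for both. H2-Aa, the alpha chain of I-A, was at 1348, 684, 572 and 1326 CPM with AC220 and at 24.8, 120, 320 and 291 CPM with the combination (-2.38, SE 0.72, edgeR adjusted p = 0.256). H2-Eb1, the beta chain of I-E, was at 1029, 374, 579 and 511 CPM against 2.22, 75.1, 1.12 and 249 CPM (-2.93, SE 1.13, edgeR adjusted p = 0.272). H2-Eb1 spread most within the combination, where libraries 1 and 3 were near 0 and library 4 lay closest to the AC220 range. In DESeq2 the adjusted p was 0.00043 for H2-Ab1, 0.00018 for Cd74 and 0.0473 for H2-Aa, and H2-Eb1 did not pass. Per kilobase of median transcript length, the mean AC220 level was 4911 CPM for H2-Ab1, 2504 for Cd74, 1006 for H2-Aa, 576 for H2-Eb1 and 18.8 for H2-Ob, so the called gene was the least abundant of the 5. In bulk RNA, fewer class II positive cells in the gate and less RNA per cell cannot be told apart.

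The genes that act on peptide loading were less uniform. H2-DMa, the alpha chain of H2-DM, was at 202, 429, 547 and 460 CPM with AC220 and at 176, 34.7, 262 and 116 CPM with the combination (-1.48, SE 0.50, edgeR adjusted p = 0.256). The groups overlapped through AC220 library 1. H2-DMb1 and H2-DMb2, the beta chains, had log2 values of -2.01 (SE 0.94) and -1.38 (SE 1.26). H2-Oa, the partner of H2-Ob, was at 5.72, 12.6, 0.0589 and 14.5 CPM with AC220 and at 0.342, 0.939, 0.026 and 2.21 CPM with the combination (-3.23, SE 1.39, edgeR adjusted p = 0.315). AC220 library 3 was as low in H2-Oa as the combination libraries. Ciita was at 21.4, 32.2, 36.6 and 19.5 CPM with AC220 and at 0.0977, 2.37, 21.1 and 3.8 CPM with the combination (-2.0, SE 1.16, edgeR adjusted p = 0.451). Only combination library 3 reached the AC220 range of Ciita, and without it the fitted value was -3.61 (adjusted p = 0.244).

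Most dendritic cell genes of the same list were low in most libraries. Bst2, also on the list, was not, at 103, 167, 119 and 263 CPM with AC220 and at 202, 203, 162 and 121 CPM with the combination. Zbtb46 was at 0.341, 0.0759, 0.648 and 1.35 CPM against 0.0, 0.188, 5.92 and 0.058 CPM. Over the whole list, 3 members were fitted above 0 and 19 below. Cd209a, a lectin of monocyte-derived dendritic cells, was at 10.6, 15.6, 0.0 and 14.9 CPM with AC220 and at 0.0, 0.446, 0.312 and 0.0 CPM with the combination (-5.74, SE 1.73, edgeR adjusted p = 0.256). Xcr1 and Clec9a, receptors of cross-presenting dendritic cells, had log2 values of -1.69 and -2.25 (SE 1.55 and 1.36), Batf3, their transcription factor, -0.15 (SE 1.86) and the plasmacytoid gene Siglech 0.81 (SE 2.06). Xcr1 and Batf3 reached 16.4 and 50.4 CPM in combination library 4 and stayed under 2 CPM in the other combination libraries. The list's 22 members summed to 9654, 7308, 7235 and 11936 CPM with AC220 and to 606, 1639, 1831 and 1793 CPM with the combination, a gap with no overlap. Most of this sum was H2-Ab1, Cd74, H2-Aa and H2-Eb1, with AC220 means of 3577.5, 3064.5, 982 and 623 CPM in a list mean of 9033 CPM. The gap therefore mostly repeats the values of those genes. Of the 22, all tested, 1 was called lower and 0 higher, 10 were lower and 0 higher at an unadjusted p under 0.05 (5.39% and 8.57% of all genes), and 5 did not overlap and were lower (2.02% of all genes). Their median log2 fold change was -2.06, beside 0.09 for all genes tested, and -2.17 without combination library 3. The list holds dendritic cell genes as well as class II genes, and the part of such cells in the class II values was not tested. The B cell list summed to 127 to 541 CPM with AC220 and 135 to 303 CPM with the combination, which overlap.

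**Figure D2:**
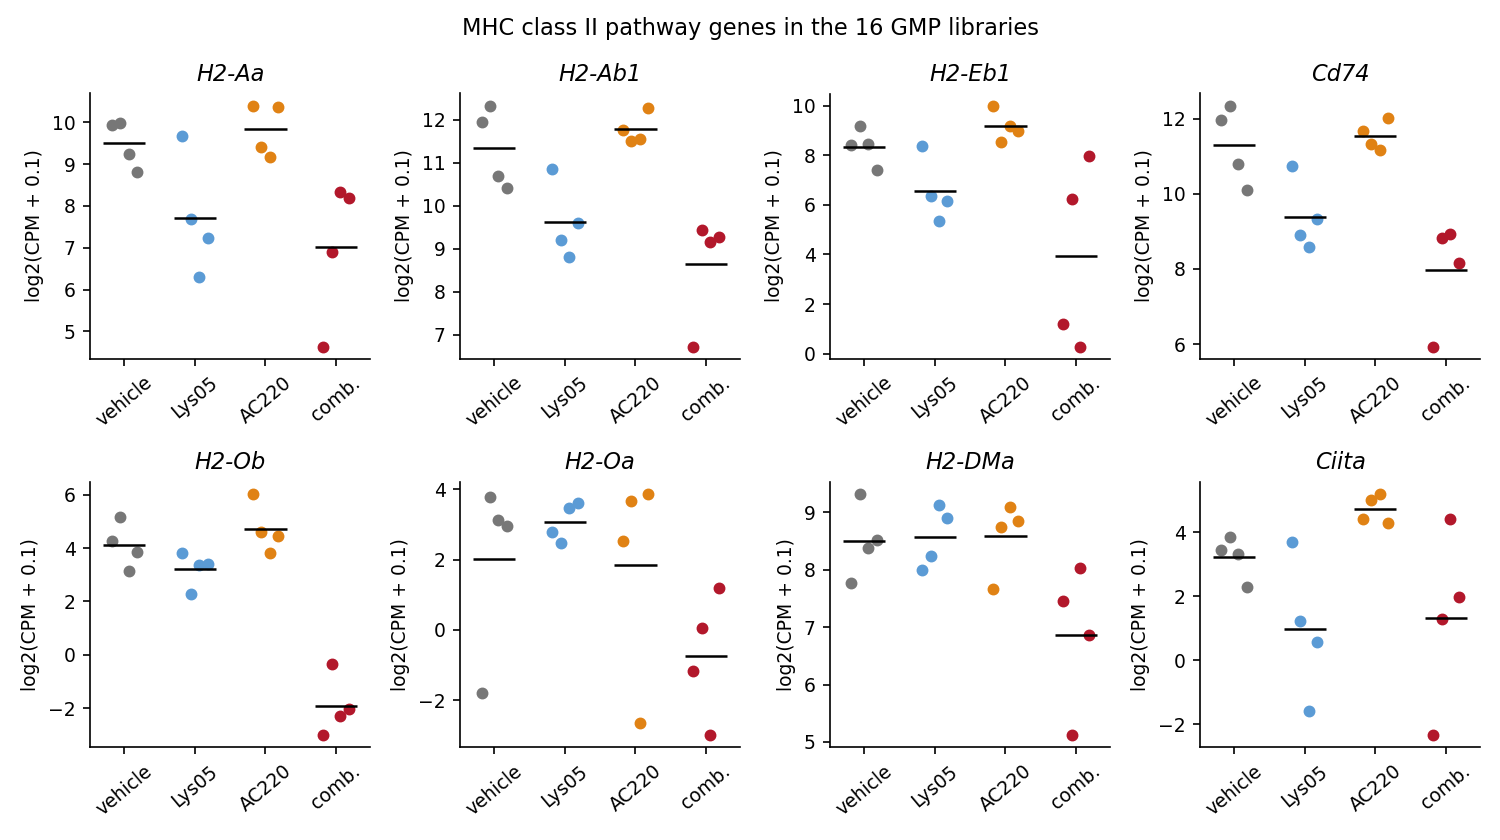
Each point is 1 GMP library, by treatment, as log2(CPM + 0.1), and the line is the mean of 4. H2-Aa, H2-Ab1, H2-Eb1, Cd74 and H2-Ob have every combination library below every AC220 library, while H2-Oa, H2-DMa and Ciita overlap. Only H2-Ob passed the edgeR test.

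Class II levels were set beside the groups without AC220 to ask whether Lys05 was associated with the same difference there. H2-Ab1 was at 3917, 5127, 1661 and 1368 CPM with vehicle and at 1839, 590, 449 and 780 CPM with Lys05. Cd74 was at 4007, 5209, 1787 and 1108 CPM with vehicle and at 1718, 478, 381 and 645 CPM with Lys05. For each, Lys05 library 1 lay within the vehicle range and the other 3 below it. The interaction of Lys05 and AC220, which uses the same combination and AC220 libraries, was -1.12 (SE 0.76) for H2-Ab1 and -1.34 (SE 0.82) for Cd74 on the log2 scale, with edgeR adjusted p = 0.746 and 0.698. For H2-Ob it was -6.03 (SE 1.21, adjusted p = 0.422). The interaction called 0 of 14572 genes in edgeR, with 1287 at an unadjusted p under 0.05, 240 in DESeq2 and 1 with voom and quality weights.

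The same contrast in LSK was used to ask whether class II genes differed there as well. H2-Ob was at 61.3, 51.7, 56.3 and 67.0 CPM in AC220 LSK and at 18.9, 23.5, 20.6 and 30.4 CPM in combination LSK, again with no overlap (-1.34, SE 0.56, in the fit of all 32 libraries, edgeR adjusted p = 1.0). In GMP the same fit gave -6.91, and the difference between the cell types was -5.57 (edgeR adjusted p = 0.0029, n = 4 in each of 4 groups). Of the class II and dendritic cell list, H2-Ob alone passed this test of the difference, which used a spread shared between the GMP and LSK libraries. H2-Ab1, Cd74, H2-Aa and H2-Eb1 had LSK values of -1.85, -1.97, -1.82 and -2.02 (SE 0.66, 0.7, 0.72 and 0.96). None of these LSK values passed in edgeR, and the LSK groups overlapped at each gene through combination library 4. The GMP minus LSK differences of these genes, -0.91, -1.18, -0.47 and -0.89, had edgeR adjusted p from 0.544 to 0.865. Over the whole list the median was -1.7 in LSK.

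Beside the class II list, a rule named genes in each direction at a minimum mean level that H2-Ob did not reach, and 11 with higher and 12 with lower values are reported. None of the 23 passed in edgeR, so the following are values. In DESeq2, which called 818 genes, all of them passed, with adjusted p from 1.9e-10 for Atxn2 to 0.0319 for Man2b1. With voom and quality weights, 0 genes were called. Chd7, a chromatin remodeller, was at 28.7, 32.9, 14.3 and 25.3 CPM with AC220 and at 101, 168, 78.8 and 210 CPM with the combination (2.46, SE 0.42, edgeR adjusted p = 0.144). Hcls1, an actin regulator of blood cells that is phosphorylated by Lyn, was at 14.6, 26.3, 12 and 22.9 CPM against 78.9, 79.9, 73.0 and 67.7 CPM (1.98, SE 0.37, edgeR adjusted p = 0.16). The groups of these genes were separate, and the 4 combination values of Hcls1 lay close together. Atxn2, an RNA-binding protein, was at 0.21, 1.62, 2.03 and 1.22 CPM against 15.4, 49.4, 15.1 and 12.4 CPM (4.18, SE 0.80, edgeR adjusted p = 0.16). Klf9, a zinc finger transcription factor, Utrn, the dystrophin relative utrophin, Hist1h1d, a linker histone, Fbxo31, a ubiquitin ligase subunit, and Emc1, a subunit that inserts proteins into the endoplasmic reticulum membrane, had log2 values of 2.49, 2.33, 2.96, 2.61 and 1.77. Tmem120a had 3.2 and the ubiquitin ligase Rnf220 had 1.5. All of these had no overlap between groups. The mean of Hist1h1d was 4.62 CPM with AC220 and 36.1 CPM with the combination, beside 39.4 CPM with vehicle and 22.4 CPM with Lys05. Chd7, Hcls1 and Atxn2 had vehicle means of 54.8, 36.4 and 7.11 CPM. These lay between their AC220 means (25.3, 18.9 and 1.27 CPM) and their combination means (139, 74.9 and 23.1 CPM). Noc4l, a nucleolar protein of ribosome assembly, was at 7.74 CPM in combination library 3, below all AC220 libraries, and had 2.5 with it and 2.98 without it.

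The 12 named genes with lower values were Cd74, H2-Ab1, Man2b1 and the 9 that follow. Stam2, an endosomal protein that sorts ubiquitinated receptors towards the lysosome, was at 40.2, 9.62, 63.1 and 29.2 CPM with AC220 and at 4.03, 5.44, 4.49 and 3.89 CPM with the combination (-2.99, SE 0.58, edgeR adjusted p = 0.16). Tbc1d7, a subunit of the TSC complex that restrains mTORC1, was at 36.8, 50.6, 64.1 and 32.3 CPM against 6.16, 1.99, 6.28 and 12 CPM (-2.8, SE 0.53, edgeR adjusted p = 0.16). Neither overlapped between groups. Siglece, an inhibitory sialic acid receptor of myeloid cells, was at 25.1, 6.91, 54.7 and 37.1 CPM against 2.1, 1.15, 0.182 and 3.57 CPM (-4.14, SE 0.81, edgeR adjusted p = 0.16). Mfap3, Pter, Ebag9, Ogfod3 and the monocyte-lineage gene Ms4a6b had -2.6, -3.9, -3.06, -3.0 and -3.44. Cst3, the secreted cathepsin inhibitor cystatin C, was at 4672, 5153, 4085 and 6058 CPM with AC220 and at 2069, 2606, 2043 and 1601 CPM with the combination (-1.26, SE 0.30, edgeR adjusted p = 0.207). It was below the AC220 range in all 4 combination libraries.

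**Figure D3:**
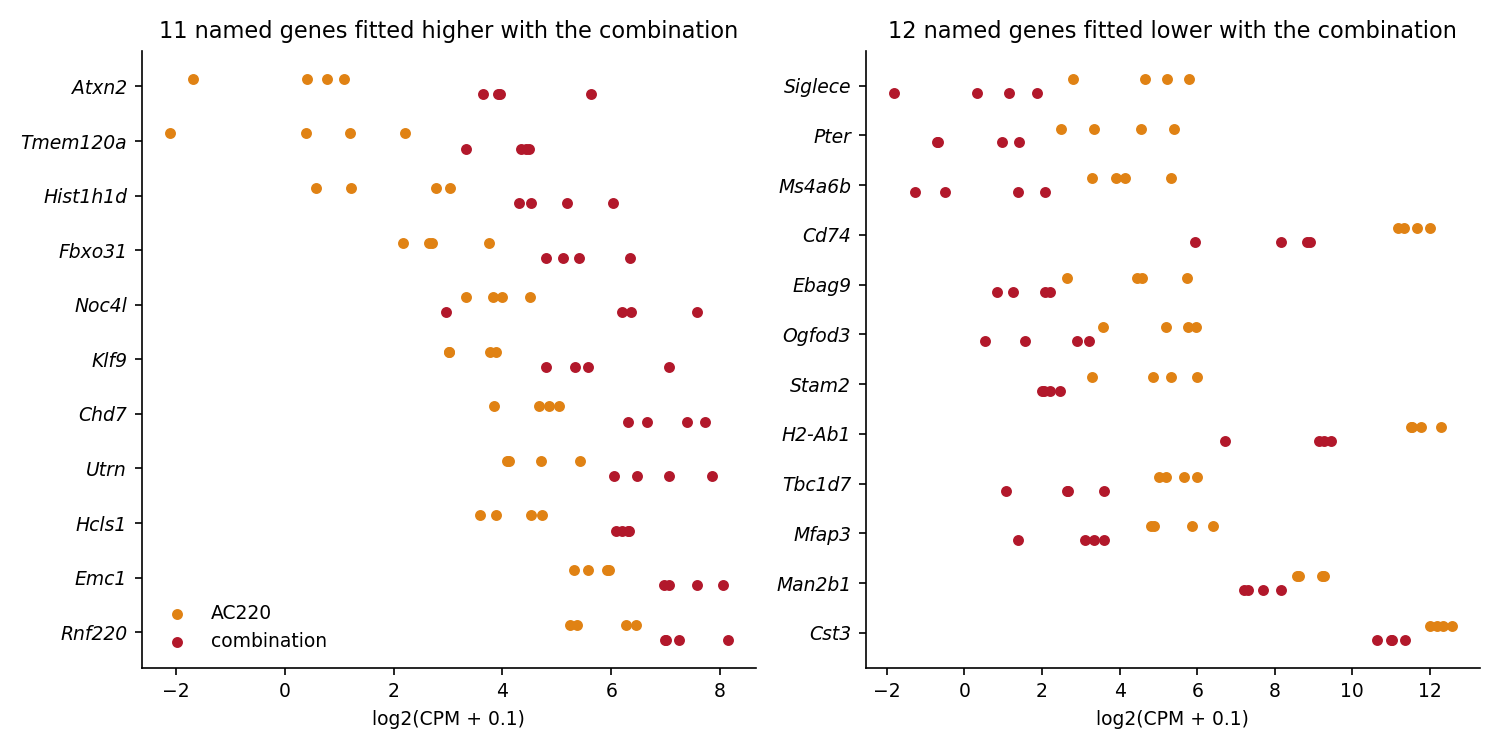
Each point is 1 library as log2(CPM + 0.1), with AC220 above and the combination below on each gene's row, for 11 genes with higher and 12 with lower values that the naming rule took. No gene shown passed the edgeR test. Noc4l overlaps through combination library 3, at 7.74 CPM.

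Lysosome and autophagy genes were examined because Lys05 acts on the lysosome. Of 46 tested lysosomal hydrolases, 0 were called, 5 were higher and 5 lower at an unadjusted p under 0.05 (8.57% and 5.39% of all genes), and the median was -0.05. Without combination library 3, 3 were higher and 8 lower (1058 and 968 of the 14572 genes). Man2b1, the lysosomal alpha-mannosidase, was at 597, 397, 619 and 381 CPM with AC220 and at 206, 158, 287 and 148 CPM with the combination (-1.32, SE 0.31, edgeR adjusted p = 0.206). Ppt1, the palmitoyl-protein thioesterase that dimeric chloroquines have been reported to bind, was at 164, 120, 198 and 108 CPM against 28.2, 82.9, 46.0 and 80.3 CPM (-1.31, SE 0.40, edgeR adjusted p = 0.256). Both had every combination library below every AC220 library, and Ppt1 had -1.19 in LSK. The mean of Man2b1 was 499 CPM with AC220 and 200 CPM with the combination, beside 167 CPM with vehicle and 133 CPM with Lys05. Gm2a, the activator protein for ganglioside breakdown, had -0.95 (SE 0.33) with no overlap, and the sulfatase Arsb -1.66 (SE 0.51) with overlap. Mean vehicle levels were 217 CPM for Gm2a and 29.4 CPM for Arsb, beside 149 and 16.6 CPM with the combination. Of 34 lysosome membrane and V-ATPase genes, 2 were higher and 1 lower at an unadjusted p under 0.05 (8.57% and 5.39% of all genes), with a median of 0.03. Without combination library 3, these counts were 1 and 1. The pump subunits Atp6v1a and Atp6v1g1 had 1.31 (SE 0.51) and -0.55 (SE 0.26).

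ATG8 proteins coat autophagosomes and hold cargo receptors. Map1lc3b, the usual marker of autophagosomes, was at 644, 920, 1046 and 815 CPM with AC220 and at 380, 615, 475 and 582 CPM with the combination (-0.74, SE 0.38, edgeR adjusted p = 0.392). Its RNA was lower in all 4 combination libraries than with AC220, without passing. The mean of Map1lc3b was 856 CPM with AC220 and 513 CPM with the combination, beside 519 CPM with vehicle and 435 CPM with Lys05. Sqstm1, the cargo receptor p62, was at 20.8, 24.4, 67.6 and 19.5 CPM against 46.2, 21.9, 153 and 31.6 CPM (0.93, SE 0.60, edgeR adjusted p = 0.506), with overlap, and had 0.09 without combination library 3. The list of 16 had 2 higher and 0 lower at an unadjusted p under 0.05 (8.57% and 5.39% of all genes) and a median of 0.14. Of 31 core autophagy genes, 4 were higher and 1 lower at that p (beside the same 8.57% and 5.39%), with a median of 0.09. Atg16l1, which helps attach ATG8 proteins to membranes, was at 0.184, 0.43, 0.0295 and 1.08 CPM with AC220 and at 47.1, 10.9, 16.3 and 0.203 CPM with the combination (5.41, SE 1.30, edgeR adjusted p = 0.216). Combination libraries 1 to 3 lay above the AC220 range, and library 4 lay within it. Atg16l1 was at 2.34, 11.2, 10.5 and 6.19 CPM with vehicle and at 10.9, 8.92, 5.33 and 8.78 CPM with Lys05. All of these values were above every AC220 library. Pik3r4, the regulatory subunit of the VPS34 lipid kinase, had -3.3 (SE 1.2) and Rubcn, an inhibitor of that kinase, 3.09 (SE 1.17), both with no overlap.

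Genes of FLT3 signalling were followed because AC220 was present in both groups. Flt3 was at 53, 21.9, 14.1 and 26.6 CPM with AC220 and at 6.64, 12.1, 2.0 and 20.4 CPM with the combination (-1.49, SE 0.75, edgeR adjusted p = 0.39). Myc was at 151, 117, 96.4 and 68.3 CPM against 86.4, 37.4, 1.27 and 34.8 CPM (-1.44, SE 0.73, edgeR adjusted p = 0.391). Each overlapped, and combination library 3 was the lowest for both. The STAT5 targets Pim1, Socs2 and Cish had 0.34 (SE 0.58), 0.45 (SE 0.54) and 0.21 (SE 1.58). Their list of 15 had 1 higher and 0 lower at an unadjusted p under 0.05 (8.57% and 5.39% of all genes). Dusp6, the phosphatase induced by ERK, was at 1.39, 2.13, 0.0884 and 1.08 CPM with AC220 and at 0.0244, 0.305, 56.4 and 3.95 CPM with the combination (3.69, SE 1.57, edgeR adjusted p = 0.311). Its value rested on combination library 3 and was 0.3 without it. The ERK feedback list had a median of 1.44 with that library and -0.22 without it. Kit, the stem cell factor receptor, had -0.82 (SE 0.53), the cyclin Ccnd1 3.55 (SE 2.04, and -0.41 without library 3), the cell cycle inhibitor Cdkn1a 0.1 (SE 0.44) and the proliferation marker Mki67 0.12 (SE 0.35). Among the 8 AC220 and combination libraries, Cdkn1c held counts only in combination libraries 1 and 3, at 0.0244 and 1.38 CPM, while the vehicle libraries had 0.0334 to 0.316 CPM and the Lys05 libraries 0.0181 to 0.615 CPM. Hmgcs1 of sterol synthesis, the p53 target Trp53inp1 and the stem cell factors Hlf and Mecom had -0.56, -0.34, -1.47 and 1.0, each with overlap.

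Csf2rb2, the beta chain of the mouse IL-3 receptor, held 1394, 133, 813 and 155 counts with AC220 and 1, 13, 1 and 2 counts with the combination (-7.29, SE 1.73, edgeR adjusted p = 0.216). Epor, the erythropoietin receptor, held 1, 0, 0 and 0 counts with AC220 and 572, 240, 104 and 29 counts with the combination, and its edgeR adjusted p was 0.191. In each case the AC220 and combination groups did not overlap. Csf2rb2 was at 0.0, 2.29, 4.36 and 4.17 CPM with vehicle and at 0.166, 3.06, 2.32 and 1.93 CPM with Lys05. Epor was near 0 in those groups as with AC220, at 0.0, 0.0695, 0.288 and 0.217 CPM with vehicle and at 0.0, 0.0178, 0.0726 and 0.302 CPM with Lys05. The list of 23 cytokine receptors had 2 higher and 3 lower at an unadjusted p under 0.05 (8.57% and 5.39% of all genes). Ifngr1, the interferon gamma receptor chain, had -1.16 (SE 0.45) with overlap.

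Of the 14 GMP markers, 0 were called, 3 were lower and 0 higher at an unadjusted p under 0.05, and the same 3 did not overlap (5.39% of all genes were lower at that p, and 2.02% lower without overlap). Without combination library 3, 1 was lower at that p and 3 did not overlap. Of all 14572 genes, 968 were lower at that p without that library, and 467 were lower without overlap. The 3 in all libraries were Mpo (-0.61, SE 0.26, edgeR adjusted p = 0.306), Spi1, the factor PU.1 (-0.8, SE 0.35), and Irf8, a factor of monocyte and dendritic cell fate (-0.91, SE 0.40). Without that library they had -0.37, -0.87 and -0.51. Irf8 was at 741, 487, 548 and 487 CPM with AC220 and at 251, 449, 75.8 and 426 CPM with the combination, so that 2 combination libraries lay just under the AC220 range. The granule proteases Elane, Prtn3 and Ctsg had -0.73 (SE 0.49), 0.02 (SE 0.26) and -0.47 (SE 0.36), with overlap. Of 18 monocyte genes, 5 were lower and 0 higher at an unadjusted p under 0.05 (5.39% and 8.57% of all genes), with a median of -0.69. Without combination library 3, 1 was lower (968 of the 14572 genes). Ly6c2, a surface protein of monocytes and their progenitors, was at 1220, 1481, 1941 and 1376 CPM against 1005, 1114, 635 and 714 CPM (-0.8, SE 0.28, edgeR adjusted p = 0.256) without overlap. The monocyte list summed to 2892 to 3808 CPM with AC220 and 1576 to 2799 CPM with the combination.

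Mitochondrially encoded genes were the list with the highest median, 2.6 over 12 tested members, of which 10 were higher at an unadjusted p under 0.05 (8.57% of all genes) and 0 were called. mt-Co1, a subunit of cytochrome oxidase, was at 6100, 1741, 3782 and 951 CPM with AC220 and at 3812, 25476, 61019 and 6320 CPM with the combination (2.94, SE 1.09, edgeR adjusted p = 0.263). The groups overlapped at all 12 genes, and without combination library 3 the median was 1.77 and 0 members had an unadjusted p under 0.05. Vehicle libraries spanned 2.33% to 12.7% of gene counts in these genes. The 73 nuclear-encoded respiratory chain genes had a median of -0.27, with 61 below and 12 above 0. At an unadjusted p under 0.05, 1 was lower and 1 higher (5.39% and 8.57% of all genes). Their summed level was 56875 to 68626 CPM with AC220 and 40110 to 56849 CPM with the combination, which left almost no gap. Of 79 cytosolic ribosomal protein genes, 6 were lower and 1 higher at that p with all libraries (5.39% and 8.57% of all genes). Without combination library 3, 0 were lower and 8 higher (968 and 1058 of the 14572 genes), so their direction turned on that library.

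Hsp90aa1, the stress-induced HSP90, was at 2125, 874, 1450 and 1033 CPM with AC220 and at 2335, 4458, 4653 and 2515 CPM with the combination (1.35, SE 0.41, edgeR adjusted p = 0.256). Every combination library was above every AC220 library. Hsp90ab1, the constitutive form, had 0.82 (SE 0.31) and the cochaperone Bag3 2.66 (SE 1.19), both with overlap. Hsp90aa1 and Hsp90ab1 together had a mean of 6574 CPM with AC220 and 12663 CPM with the combination, and the other 13 heat shock genes had 3699 and 3743 CPM in sum. Of the 14 tested heat shock genes, 3 were higher and 0 lower at an unadjusted p under 0.05 (8.57% and 5.39% of all genes), with a median of 0.31. Of 41 interferon genes, 3 were higher and 5 lower at that p (again beside 8.57% and 5.39% of all genes). Without combination library 3, the counts were 2 and 3 (1058 and 968 of the 14572 genes). The immunoproteasome subunit Psmb9 was at 479, 469, 484 and 519 CPM against 425, 296, 252 and 181 CPM (-0.76, SE 0.26, edgeR adjusted p = 0.256), without overlap.

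Markers of other cell types were uneven among the combination libraries. The macrophage list summed to 249 to 770 CPM with AC220 and to 605, 1066, 3859 and 186 CPM with the combination. Of its 19 members, 4 had no counts in any AC220 library and 3 had none in any combination library. Of 15 tested, 4 were higher and 0 lower at an unadjusted p under 0.05 (8.57% and 5.39% of all genes). Their median was 1.95, and 1.5 without combination library 3. C1qb, a complement subunit made by macrophages, was at 0.577, 8.3, 85.6 and 5.39 CPM with AC220 and at 58.0, 87.9, 521 and 41.8 CPM with the combination, and AC220 library 3 overlapped. Spic was at 0.0, 0.582, 0.0884 and 0.038 CPM against 8.36, 8.4, 215 and 1.92 CPM (8.35, SE 2.16, edgeR adjusted p = 0.233) without overlap. The erythroid list had a median of 1.32 over 17 tested genes, with 4 higher at an unadjusted p under 0.05 (8.57% of all genes). The part of such cells in the values above was not tested.

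**Figure D4:**
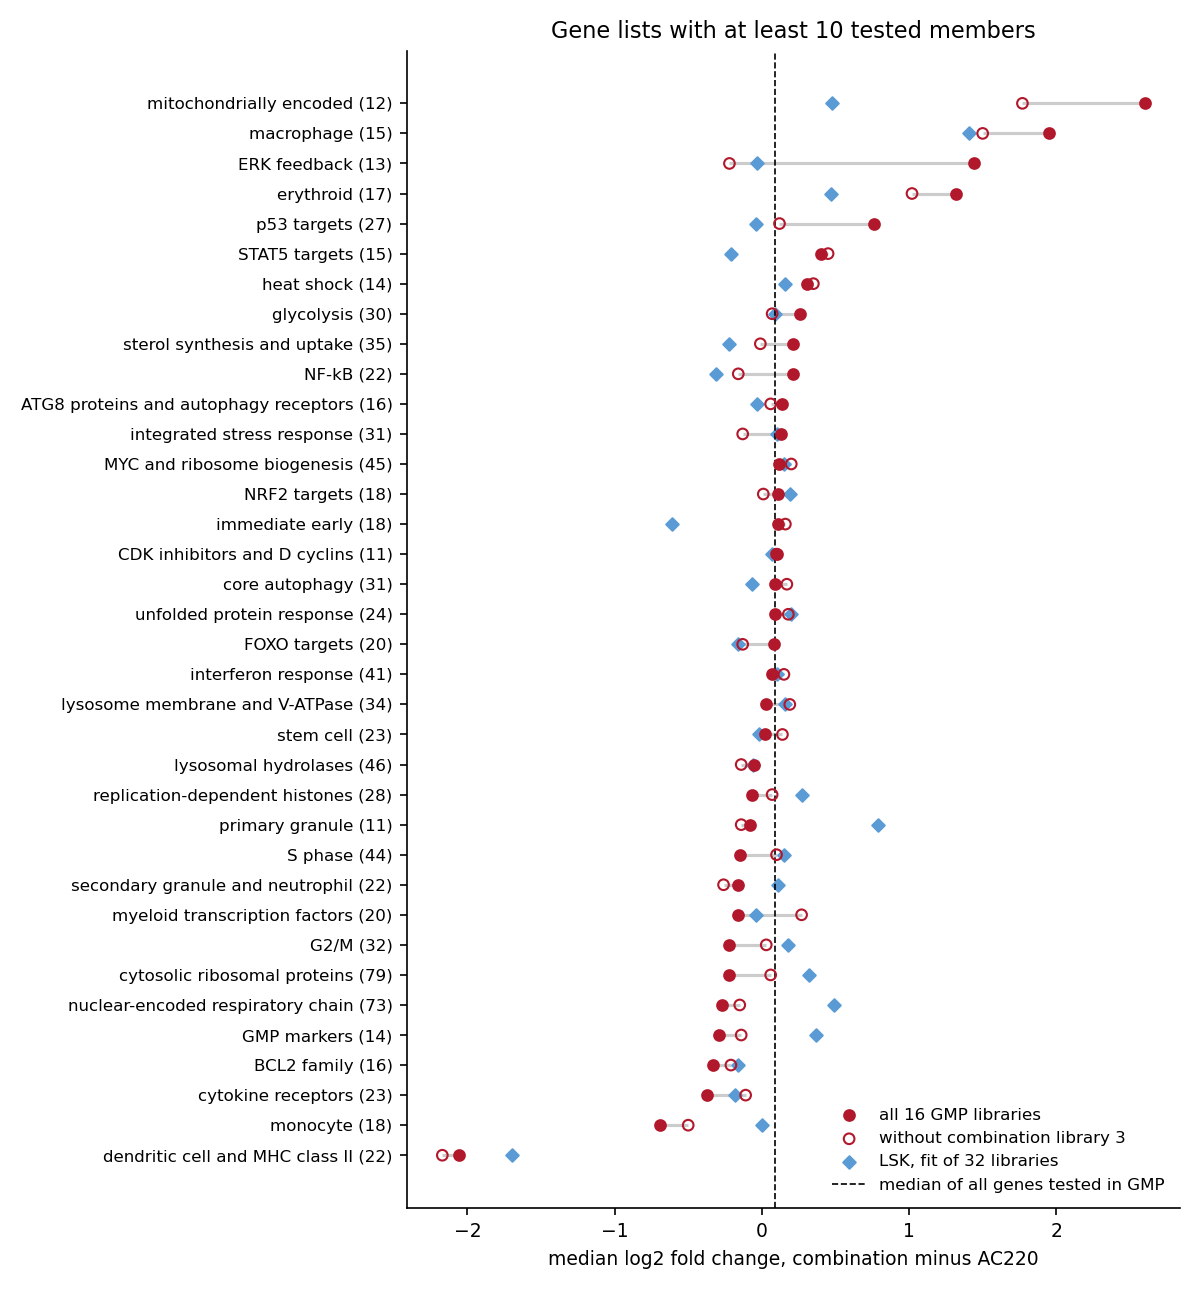
Median log2 fold change of the combination against AC220 for gene lists with at least 10 tested members (number in brackets). Filled circles use all 16 GMP libraries, open circles leave out combination library 3, diamonds are LSK, and the dashed line is the median of all genes tested, 0.09. The class II and dendritic cell list lies lowest in GMP at -2.06, and the ERK feedback list moves from 1.44 to -0.22 without that library.

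The difference between GMP and LSK was tested gene by gene, and 33 of 17144 genes (0.192%) passed, 14 with the higher value in GMP and 19 with the lower. Hcls1 passed with a GMP minus LSK difference of 2.53 (SE 0.36, edgeR adjusted p = 0.00172), from 2.04 in GMP and -0.5 in LSK. In LSK, Hcls1 was at 132, 88.2, 76.6 and 97.1 CPM with AC220 and at 65.9, 62.1, 77.9 and 73.7 CPM with the combination. Atxn2 passed with 4.45 (SE 0.72, adjusted p = 0.00565) and was level in LSK, at 22.6 to 26.4 CPM against 18.7 to 23.0 CPM. Stam2 (-2.95), Tbc1d7 (-3.11), Pter (-3.9), Mfap3 (-2.48) and Ms4a6b (-3.78) passed with adjusted p from 0.0244 to 0.0477, and their LSK values lay between 0.0 and 0.38 in size. Ms4a3, a membrane protein of granulocyte-monocyte progenitors, passed with the higher value in LSK. It was at 1619, 3050, 3928 and 2593 CPM in AC220 GMP and at 2836, 2846, 3424 and 2706 CPM in combination GMP, where the groups overlapped, while in LSK it was at 48.2, 33.7, 40.9 and 42.2 CPM with AC220 and at 71.6, 204, 205 and 270 CPM with the combination. The LSK value was 2.19, the GMP value in that fit 0.16, and the difference -2.02 (SE 0.44, edgeR adjusted p = 0.0477). These p-values use a spread shared with the LSK libraries, with a common biological coefficient of variation of 0.885 over all 32 libraries against 1.06 over the 16 GMP libraries. The count fell to 3 when LSK AC220 library 1 or LSK combination library 2, 3 or 4 was left out singly, and rose to 274 without GMP combination library 1.

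**Figure D5:**
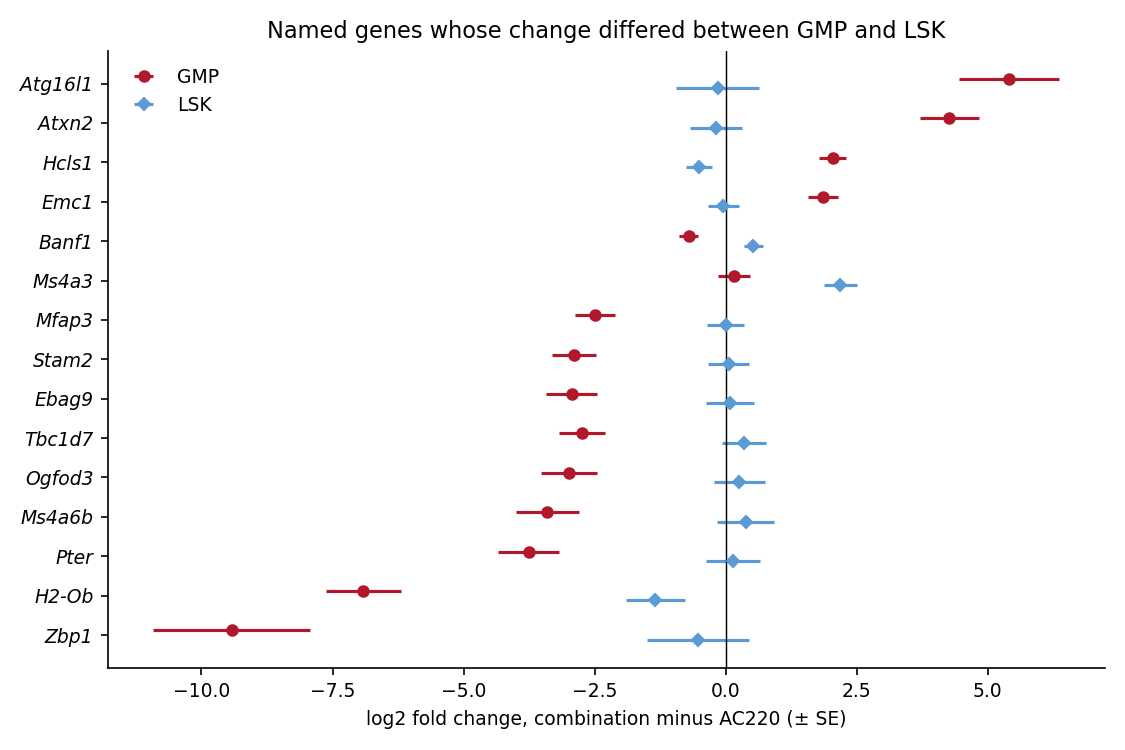
Log2 fold change of the combination against AC220 in GMP (circles) and LSK (diamonds), with its approximate standard error. Values are from the fit of all 32 libraries, with 4 libraries per group, for the named genes whose difference passed. Hcls1 has 2.04 in GMP and -0.5 in LSK, H2-Ob has -6.91 and -1.34, and Ms4a3 has 0.16 and 2.19.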

How the data were processed

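RNA was measured in 32 bulk libraries, of which the 8 combination and AC220 GMP libraries form the comparison. The authors deposited 1 table of whole-number read counts for 56246 Ensembl genes, unnormalized. Per the labels' protocols, low-input RNA was amplified with SMARTer v4 chemistry before Nextera XT tagging and paired-end sequencing. The submitters' processing notes name GRCm38, HTSeq 0.11.2, STAR 2.7.3a and Trim Galore 0.6.5 among other tools, with no order. The strand setting is not given in the sources used here, so overlapping genes and near-identical paralogs may share reads. The 5 summary lines, 19.1% to 30.9% of a GMP library's counts, stayed out of sizes and tests. GENCODE M21 gave symbols for 55230 rows.

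Counts of all 16 GMP libraries entered edgeR 4.0.16 (R 4.3.3), with TMM factors, filterByExpr and robust quasi-likelihood tests, two-sided, with p adjusted over all tested genes (Benjamini-Hochberg, threshold 0.05). All 32 libraries were fitted for GMP minus LSK. SE is an approximate standard error, the size of a log2 fold change divided by the square root of the quasi-likelihood F statistic. Alternatives were DESeq2 1.42.0, RLE factors, no filter, voom (limma 3.58.1), a length and GC offset, the 8 libraries alone and leaving out each library. Leaving out 5 weakly correlated libraries and fitting all 32 together were added after the data were seen. Data for 14572 genes were simulated with the spread of the real data. The test recovered 17.9% of 67 genes changed by a log2 of 2, 56.7% of 67 at 3 and 81.8% of 66 at 5. The changed genes were drawn from the better expressed ones, so recovery at low counts was not tested.

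Named genes are the 12 per direction with the largest change that passed, filled up by smallest p, with mean log2 CPM no lower than 2, leaving out predicted, clone, pseudogene and antigen receptor names. Up to 4 members of each described list, 19 followed genes and genes called between the cell types were added. Some items are left out here. H2-Aa, H2-Eb1, the H2-DM genes, H2-Oa, Ciita, Xcr1, Clec9a, Batf3, Siglech, Bst2, Zbtb46, Prtn3, Ctsg, C1qb, Sparc and the B cell markers were named after their values were seen. The members and the 43 lists were chosen with earlier results of these data known. Library measures were compared by exact permutation tests.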

Additional observations from a re-analysis of the deposited data

Results flagged for a closer look

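In groups of 4 libraries, 8 of 102 groups tested had a library far from the other 3 (Dixon's test at its 95% critical value), where chance flags about 1 in 20. Combination library 3 stood apart with Cdkn1c at 1.38 CPM, Mpo at 4447 CPM and a median correlation of 0.676 within its group. Combination library 2 stood apart with Atxn2 at 49.4 CPM and Trp53inp1 at 0.117 CPM, library 1 with H2-Ab1 at 106 CPM and library 4 with Tmem120a at 9.95 CPM. AC220 library 1 had a median correlation of 0.774 within its group.

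An edgeR test of the difference between GMP and LSK in the change with the combination passed for 15 named genes. It used a spread shared with the LSK libraries. Its 33 calls over all genes fell to between 3 and 15 when any single LSK library was left out. The GMP minus LSK log2 difference was 5.56 for Atg16l1, 4.45 for Atxn2, 2.53 for Hcls1 and 1.89 for Emc1. It was -1.23 for Banf1, which binds DNA at the nuclear envelope, -2.02 for Ms4a3, -2.48 for Mfap3, -2.95 for Stam2, -3.02 for Ebag9, -3.11 for Tbc1d7, -3.25 for Ogfod3, -3.78 for Ms4a6b, -3.9 for Pter and -5.57 for H2-Ob. Zbp1, a sensor of Z-form nucleic acid, had -8.89, with 429, 414, 1 and 1039 counts in AC220 GMP and 0, 2, 0 and 0 in combination GMP, so that value depends on the prior count.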

How the results depend on the processing

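No paired analysis was possible because replicate numbers were given in accession order and the labels carry none. The count of 1 gene called between combination and AC220 GMP was 818 in DESeq2, 0 with the 8 libraries alone, 0 with voom, 49 (15 higher, 34 lower) without 5 weakly correlated libraries, 1618 (1098 higher, 520 lower) in the fit of all 32 and 0 to 7 without each library in turn (3 without AC220 library 4 or combination library 1, 7 without combination library 2, 1 without AC220 library 3 and 0 otherwise). H2-Ob was not among the 49. The 0 interaction calls became 240 in DESeq2, 1 with voom, 5 without the 5 libraries and 0 to 1 without each library. The 33 calls for GMP minus LSK became 1132 in DESeq2, 9 without a filter and 3 to 274 without each library. Leaving out GMP AC220 libraries 1 to 4 gave 53, 30, 25 and 129, GMP combination libraries 274, 132, 106 and 197, LSK AC220 libraries 3, 6, 7 and 6 and LSK combination libraries 15, 3, 3 and 3. The cause was not tested.

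H2-Ob lost its call with the 8 libraries alone (0.768), with voom (0.357), without the 5 libraries (0.0638), without AC220 libraries 1 or 2 (0.101 and 0.132) and without combination libraries 3 or 4 (0.106 and 0.115). It also lost its call when any single vehicle or Lys05 library was left out (adjusted p from 0.0667 to 0.131).

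Of 132 named genes, 115 kept their direction in every alternative run. Of 3149 alternative values of these genes, 122 had an adjusted p under 0.05 where the main fit had not. With voom the direction turned for Ccnd1 (-1.72), Cdkn1a (-0.24), Cish (-1.4), Dusp6 (-1.54), Hmgcs1 (0.13) and Trp53inp1 (0.83). Without the 5 libraries it turned for Ccnd1 (-5.91), Cdkn1a (-0.11), Cish (-4.39), Dusp2 (1.38), Dusp6 (-3.09), Gfi1 (-0.17), Hmgcs1 (0.62), Kit (0.56) and Trp53inp1 (0.38), and Arg2 came to 0.0. Siglech had -6.08 there. With the length and GC offset Mki67, Batf3 and Prtn3 had -0.15, 0.28 and 0.0. Leaving out each library gave 0.0 to 6.05 for Arg2, -0.41 to 4.13 for Ccnd1, -0.09 to 0.58 for Cdkn1a, -2.29 to 2.78 for Cish, -1.67 to 9.18 for Ermap, -0.1 to 0.35 for Mki67, -4.39 to 0.82 for Batf3, -0.16 to 0.23 for Prtn3, -0.43 to 7.35 for Siglech, -0.11 to 0.28 for Ms4a3, -0.15 to 9.56 for Phlda3 and -0.71 to 0.31 for Trp53inp1. The combination minus AC220 difference in gene counts ran from -4.03 to 1.56 M, in genes with at least 10 counts from -102 to 1686 and in correlation within the group from -0.0377 to 0.000792. RLE factors moved the median of all genes from 0.09 to 0.19.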
